A study of Sus scrofa with 2 samples.

Results

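In the expression profile of PSI, a smooth muscle cell clone from pig ileum, 105 abundant gene identifiers carried no gene symbol. They were the identifiers absent from the Ensembl gene name table of the pig whose mean over both libraries was 100 FPKM or more. FPKM, fragments per kilobase, is a read number divided by the gene's length and by the library's total. The 105 came from 25880 identifiers in the table, of which 11023 had no symbol, and from 551 identifiers at 100 FPKM or more, of which 446 had a symbol. Level and missing symbol chose the members, so their levels are given as a description.

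The series holds 1 group of 2 libraries of total RNA from cells cultured with 10% fetal bovine serum in DMEM plus antibiotics, with no tissue, treatment or other cell for comparison. PSI is a single clone, and nothing in the labels says that the libraries came from separate cultures, so an SD over the libraries (n = 2) may be technical spread. Totals of 35176565 reads in replicate 1 and 32217729 in replicate 2 could be worked out from the FPKM values, which move in steps of whole reads (or read pairs, a distinction the values do not show). A single read in a gene of 1000 bases was therefore worth 0.0284 and 0.0310 FPKM. Of the 10 smooth muscle markers examined, 9 reached 1 FPKM in both libraries and MYH11, the smooth muscle myosin heavy chain, did not. The same level was reached by 3 of 4 fibroblast markers (summed 6.56 and 5.90 FPKM), 2 of 4 leukocyte markers (3.51 and 3.55) and 1 of 3 endothelial markers (1.92 and 1.60), and by none of the markers of epithelium, enteric neurons, glia and interstitial cells of Cajal. Among those at 0 were CDH1 and VIL1 of epithelium, PTPRC and CD3E of leukocytes and CDH5 of endothelium. The smooth muscle markers summed to 2023 and 1988 FPKM, most of it from ACTA2, ACTG2, CALD1 and CNN1. Their means were 693, 479, 456 and 254 FPKM, and no other marker of that list reached 100 FPKM.

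An Ensembl identifier marks a gene model on the genome, and a symbol is added when the model can be tied to a known gene, often through its counterpart in human. Models that commonly stay without one include members of families with many near-identical copies, processed pseudogenes, short non-coding RNAs and genes split or misplaced in an assembly. In cultured mesenchymal cells the most abundant messages usually encode ribosomal proteins and translation factors, the cytoskeleton, secreted matrix and mitochondrial enzymes. A symbol is a matter of annotation and says nothing about whether the gene is known elsewhere.

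No biotype, description or position was at hand for any of the 105 identifiers. The gene name table contained 0 of them by construction. The Ensembl field of the RefSeq gene table for Sscrofa11.1 was empty in all 30371 entries, and 0 of the 105 identifiers appeared in any of its other fields. None was therefore given a gene name, a class or a chromosome here. What the data do hold for each member is its level in both libraries. Through the steps of FPKM they also give a gene length and reads, each the true value or a whole fraction of it.

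The unnamed abundant identifiers held a share of the expression signal that depended on the measure. They summed to 40208 FPKM in replicate 1 and 40664 FPKM in replicate 2, which was 10.9% and 11.06% of the summed FPKM (10.98 ± 0.108%, SD, n = 2). Counted as recovered reads, they held 1774665 reads in replicate 1 and 1633071 in replicate 2, or 5.55% and 5.58% of all recovered reads. Of the library totals, which exceed the recovered reads, this was 5.05% and 5.07%. FPKM divides reads by gene length, so identifiers with short models weigh more in the summed FPKM than in the reads. The 446 named identifiers at the same threshold held 43.3% and 42.9% of the summed FPKM and 40.3% and 40.04% of the recovered reads.

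Among all identifiers without a symbol, the 105 were few but carried most of the signal. They were 0.953% of the 11023 unnamed identifiers and held 66.7% and 66.8% of the summed FPKM of that set in replicates 1 and 2. By contrast, 7398 unnamed identifiers were listed at 0 in both libraries. The share of identifiers without a symbol was 77.4% of those at 0 and 37.6% of those above 0 and under 1 FPKM. It was 16.8% from 1 to 10 FPKM, 11.003% from 10 to 100, 19.2% from 100 to 1000 and 15.4%, 4 of 26, at 1000 FPKM or more. Symbols were thus missing more often at 100 to 1000 FPKM than at 10 to 100 FPKM, a description of this table that was not tested.

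**Figure D1:**
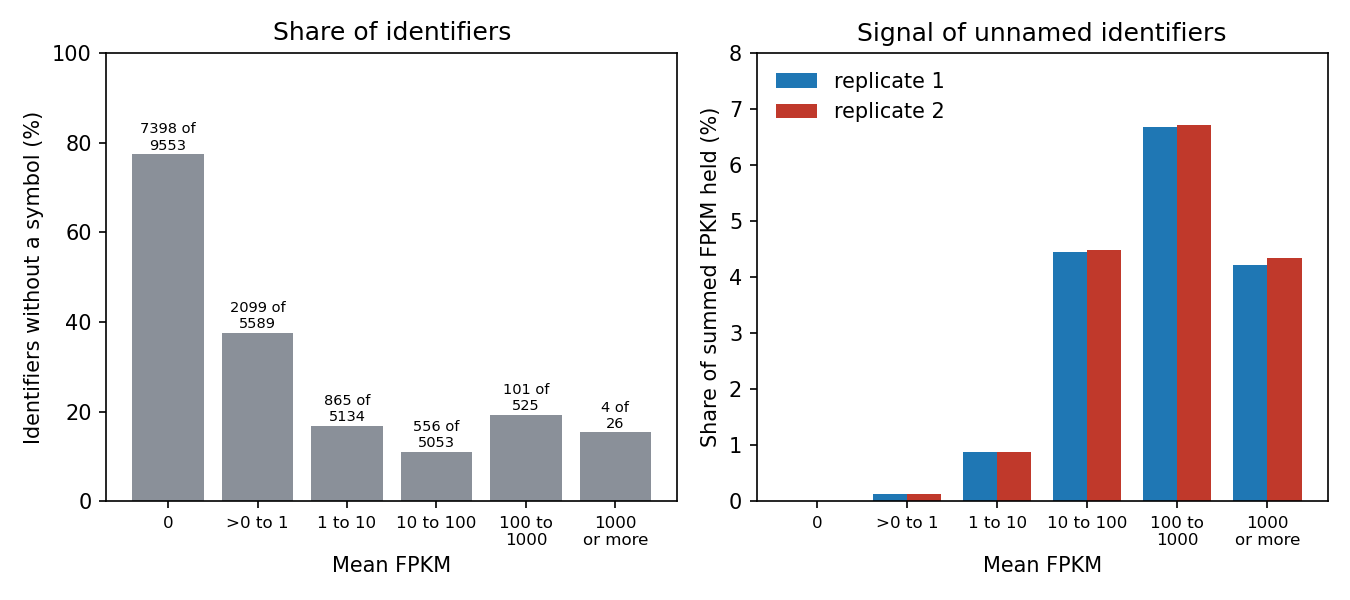
Identifiers grouped by mean FPKM. Left, the percentage without a symbol (bars, with counts); right, the percentage of each library's summed FPKM that those identifiers hold. The share without a symbol is 77.4% at 0, lowest at 11.003% from 10 to 100 FPKM and 19.2% from 100 to 1000 FPKM, while the signal held is greatest in the level class from 100 to 1000 FPKM, at 6.69% and 6.72%.

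A single identifier dominated the set. ENSSSCG00000032395 had 11238 FPKM in replicate 1 and 11768 in replicate 2 (mean 11503 ± 375 FPKM, SD, n = 2), from 385051 and 369283 recovered reads over a recovered length of 974 bases. This was the highest mean of all 25880 identifiers. The next identifier in the table was COX1, a mitochondrially encoded subunit of cytochrome oxidase, with 9223 and 8604 FPKM. In recovered reads, the unnamed identifier ranked 5 in each library, below COL1A1, THBS1, COL1A2 and COX1. Recovered reads are the true number or a whole fraction of it, so this rank is uncertain. COX1 had 501230 and 428277 reads over 1545 bases, and COL1A1, a chain of type I collagen, had 796231 and 737584 reads over 6309 bases.

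ENSSSCG00000032395 alone held 3.05% and 3.20% of the summed FPKM and 28.0% and 28.9% of the signal of the 105. It was 6.72-fold above the second member. Without it, the other members held 7.86% of the summed FPKM in each library, and the spread between the libraries shrank to 0.000425 percentage points. Nearly the whole difference between the libraries in the share of the set was that of this identifier.

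The next 3 members also exceeded 1000 FPKM. ENSSSCG00000014540 had 1733 FPKM in replicate 1 and 1690.2 in replicate 2 over a recovered length of 911 bases. For ENSSSCG00000004489 the values were 1391 and 1325 FPKM over 2038 bases. ENSSSCG00000022176 reached 1202 and 1170.2 FPKM over 232 recovered bases, from 9809 and 8747 reads. Their ranks among all identifiers were 15, 17 and 22. By mean, the first lay between ATP6 and COX2, the second between COX2 and FN1, and the third between RPLP0 and MYH9. ENSSSCG00000022176 had the shortest recovered length and the fewest reads of the 4 members above 1000 FPKM.

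Another 11 members lay between 500 and 1000 FPKM. ENSSSCG00000029830 had 879 and 878 FPKM in replicates 1 and 2, ENSSSCG00000017509 had 878 and 819.8 FPKM, and ENSSSCG00000013064 had 739 and 744 FPKM. Of these the first and the third were level between the libraries, and the second was lower in replicate 2. ENSSSCG00000003930 had 665 and 655 FPKM, ENSSSCG00000024974 had 640.4 and 662 FPKM, ENSSSCG00000006395 had 654 and 642 FPKM, and ENSSSCG00000016737 had 616 and 608 FPKM. ENSSSCG00000039222 had 608 and 599 FPKM, ENSSSCG00000005453 had 537 and 534 FPKM, ENSSSCG00000005169 had 529 and 518 FPKM, and ENSSSCG00000011613 had 519.99 and 517.5 FPKM. Neighbours in this order overlapped over the libraries in several cases, for example ENSSSCG00000024974 and ENSSSCG00000006395, whose order differed between replicates 1 and 2. The 15 highest members together held 56.8% and 56.9% of the signal of the 105.

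The remaining members lay closer to the threshold. In all, 33 members had a mean from 200 to 500 FPKM and 57 a mean under 200 FPKM, and the median over the 105 was 175 FPKM. The median over the 446 named identifiers was 168 FPKM. Just inside the threshold stood ENSSSCG00000002963 with a mean of 102 FPKM, ENSSSCG00000006581 with 100.7 FPKM and ENSSSCG00000040777 with 100.01 FPKM. Just outside it stood ENSSSCG00000025281 with 99.8 FPKM, ENSSSCG00000032436 with 99.2 FPKM and ENSSSCG00000016186 with 97.9 FPKM. A total of 4 members were under 100 FPKM in a library, and 2 unnamed identifiers below the threshold reached it in a library, so the edge of the set depends on the averaging.

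**Figure D2:**
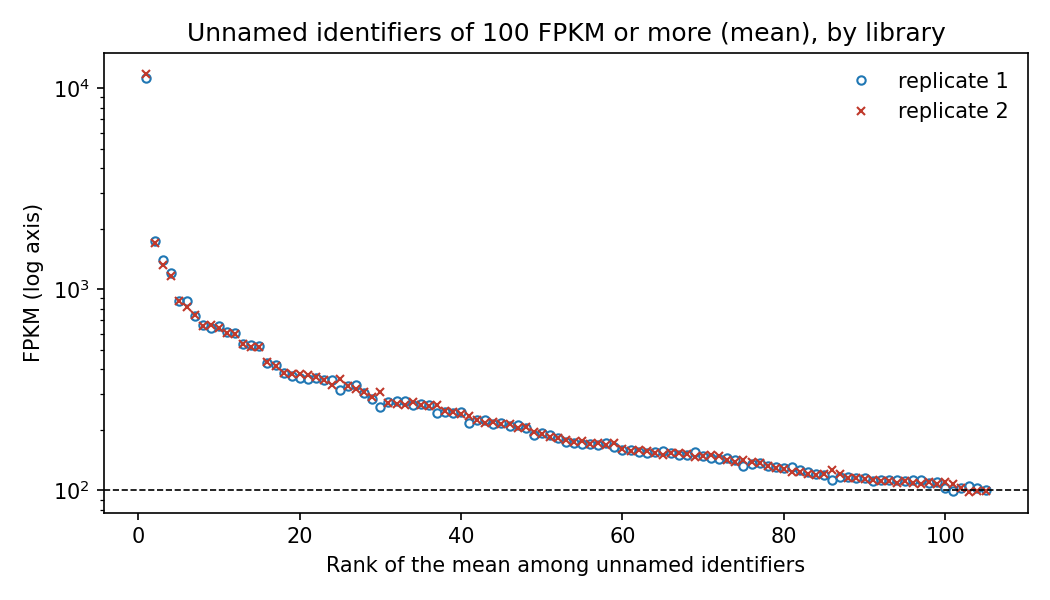
FPKM (log axis) of the 105 identifiers in replicate 1 (circles) and replicate 2 (crosses), ordered by their mean; the dashed line marks 100 FPKM. The symbols of both libraries nearly coincide at most ranks, and the first identifier, at 11238 and 11768 FPKM, stands apart from the second, at 1733 and 1690.2 FPKM.

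Recovered lengths of the unnamed identifiers had a lower median than those of named identifiers at the same threshold. The recovered length is the shortest that gives whole reads in both libraries, so it is the true counted length or a whole fraction of it. Its median was 1373 bases over the 105 (range 62 to 5648) and 1985.5 bases over the 446 named identifiers (range 111 to 12970), a ratio of 0.692. Lengths over 3000 bases occurred in 13 of the 105 (12.4%) and in 126 of the 446 (28.3%). FPKM and length are tied by the unit, both sets passed the same threshold, and no test of this difference was made. Against all identifiers of 1 FPKM or more, with or without a symbol, the ratio was lower, at 0.494. At that lower threshold the median was 1356 bases without a symbol and 2960.5 bases with one. The shorter median was thus not particular to the abundant unnamed identifiers.

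Very short recovered lengths were more frequent among the unnamed identifiers. Some of these may be a whole fraction of the counted length. A recovered length under 250 bases was found in 13 of the 105 identifiers (12.4%) and in 3 of the 446 named ones (0.673%). Without lengths under 250 bases in either set, the ratio of the medians was 0.816. The 13 short members held 10.4% and 10.6% of the FPKM of the 105 but 1.54% and 1.56% of their reads. Besides ENSSSCG00000022176 and ENSSSCG00000039222 (229 bases), which are described above, none of the 13 exceeded 500 FPKM.

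The shortest of them rested on few recovered reads, which are the true number or a whole fraction of it. ENSSSCG00000036396 had 173 and 174 FPKM over 62 recovered bases, from 377 and 347 reads. ENSSSCG00000034634 had 315 and 358 FPKM over 75 bases, from 832 and 865 reads. ENSSSCG00000038051 had 212 and 205 FPKM over 93 bases, from 692 and 615 reads. These identifiers thus passed the threshold with far fewer recovered reads than the median over the members. That median was 9809 recovered reads in replicate 1 and 9200.0 in replicate 2, and 6 and 7 members were under 1000.

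**Figure D3:**
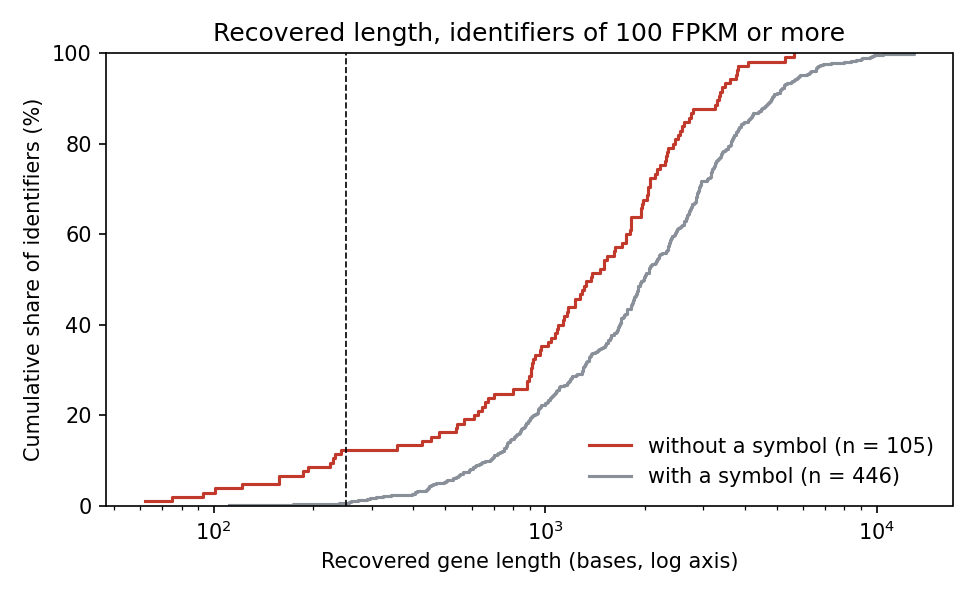
Cumulative percentage of identifiers (vertical axis) by recovered gene length in bases (log axis), for the 105 identifiers without a symbol and the 446 with one, all at 100 FPKM or more. The curve of unnamed identifiers lies to the left, with 12.4% against 0.673% under 250 bases (dashed line) and medians of 1373 and 1985.5 bases.

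Ensembl broadly numbers its identifiers as gene models are added, so high numbers belong to models introduced in later annotations. Of the 105, 36 (34.3%) had a number of 30000 or above, 14 (13.3%) a number from 20000 to under 30000 and 55 (52.4%) a lower one. Numbers of 30000 or above made up 63.5% of all 11023 unnamed identifiers and 23.5% of the named identifiers of 100 FPKM or more. The abundant unnamed identifiers thus lay between both sets. Within the 105, 11 of the 13 short members had such a number, against 25 of the other 92. Numbers under 30000 thus prevailed among the abundant unnamed identifiers, and higher numbers among the short ones.

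The libraries gave nearly the same level for most members. The log2 ratio of replicate 2 to replicate 1 had a median of -0.0037 and ranged from -0.10 to 0.25, with 49 members higher in replicate 2 and 56 higher in replicate 1. The median coefficient of variation was 1.41%, beside 1.15% over the 446 named identifiers. In all, 4 of the 105 members were over 10% apart, beside 2 of the 446 named identifiers. No member was over 1.5-fold apart. With recovered reads, a two-sided exact binomial test with Benjamini-Hochberg adjustment over 16327 identifiers separated the libraries at an adjusted p under 0.05 for 12 of the 105 members. The same test called 1.11% of all identifiers and 15.02% of the named identifiers of 100 FPKM or more, whose median read numbers, 14032 and 12801.5, were above those of the members. The share among members, 11.4%, was above that of the whole table and below that of the abundant named identifiers, and the test compares these libraries and no condition.

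Calls among members went in both directions, 6 higher in replicate 1 and 6 higher in replicate 2, beside 0.545% and 0.57% of all identifiers. ENSSSCG00000034949 had 260.4 and 309.6 FPKM over 192 bases, the greatest rise from replicate 1 to replicate 2 among members, with a log2 ratio of 0.25 and an adjusted p of 8.28e-05 by the exact binomial test. ENSSSCG00000036716, with 113 and 126 FPKM over 2307 bases, had a log2 ratio of 0.16 and an adjusted p of 5.62e-11 by that exact test. ENSSSCG00000034634 (log2 ratio 0.18) rested on fewer recovered reads and was not called, with an adjusted p of 0.231 by the exact test. A similar ratio was therefore called or not according to the recovered reads. Where these are a fraction of the true reads, the test has less power.

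In the other direction, ENSSSCG00000017509 (878 and 819.8 FPKM) had a log2 ratio of -0.10 and an adjusted p of 1.35e-11 by the exact binomial test. ENSSSCG00000003903, with 131 and 123 FPKM, had a log2 ratio of -0.095, and ENSSSCG00000002963, with 105 and 98.6 FPKM, had a log2 ratio of -0.093. Neither was called, at adjusted p values of 0.342 and 0.121 by the exact test. ENSSSCG00000032395, the most abundant identifier, was called at a log2 ratio of 0.066 with an adjusted p of 5.66e-85 by the exact test. At its read number a difference of that size exceeded counting error while it remained small beside the level itself.

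Of the 13 short members, 9 were higher in replicate 2, with a median log2 ratio of 0.019 and a range from -0.043 to 0.25. Over the other 92 members the median was -0.0050, and 40 were higher in replicate 2. Only 1 short member, ENSSSCG00000034949, was among the 12 called. The ranges of both groups overlapped.

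**Figure D4:**
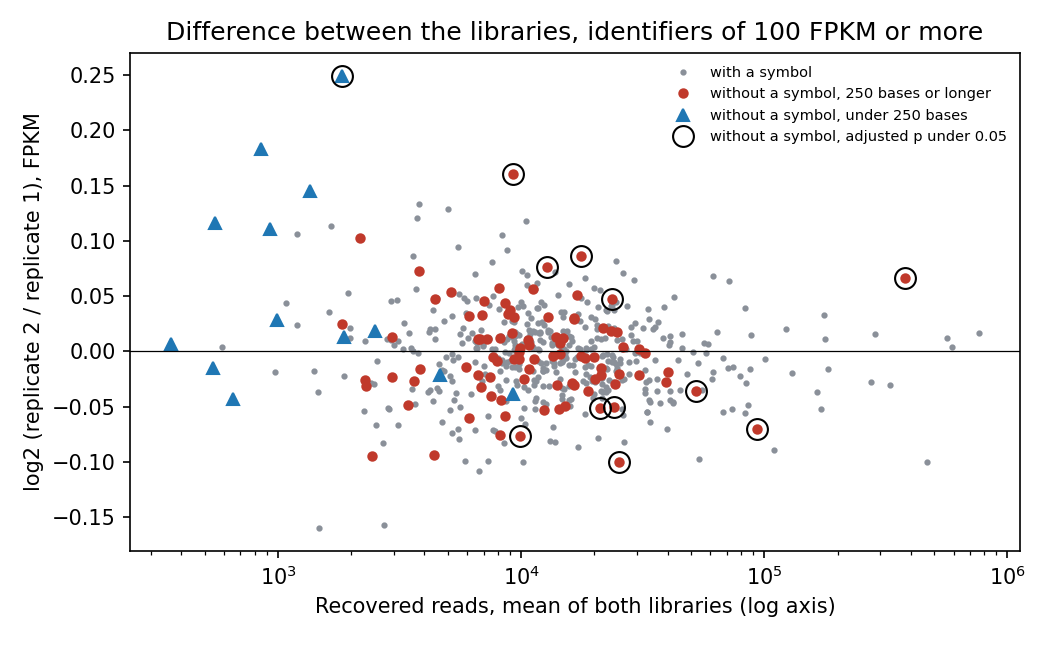
The log2 ratio of FPKM, replicate 2 over replicate 1, against recovered reads (mean of both libraries, log axis) for identifiers of 100 FPKM or more. Named identifiers are grey dots, unnamed ones red circles or, under 250 bases, blue triangles; black rings mark the 12 unnamed identifiers with an adjusted p under 0.05, which lie on both sides of 0 within -0.10 and 0.25.

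The absence of symbols could be seen from the side of well-known genes as well. Symbols were counted in 9 lists of genes that are usually abundant in cultured cells. The lists were chosen after values of these data were seen, so the counts are a description. RefSeq held 226 symbols of the lists, and 51 of them were paired with no named identifier in the table. Of these 51, 10 stood in the name table under an identifier that is not among the 25880. Levels of the 51 genes were not analysed here, and no member was assigned to any of them. The share over all RefSeq symbols was not computed, so the values do not show whether these lists differ from it. Cytosolic ribosomal proteins, the protein components of the ribosome, lacked a named identifier for 31 of 77 symbols. Examples were RPL8, RPL13, RPL19 and RPS6. Of the ribosomal proteins with a named identifier, 37 reached 100 FPKM.

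Translation factors lacked a named identifier for 6 of 32 symbols, among them EEF1A1, which delivers aminoacyl-tRNA to the ribosome, and EIF5A. Histones and chromatin proteins lacked 2 of 11, HMGB1, a DNA-bending protein, and SET, where the histone genes H2AFZ and H3F3A were counted under their later symbols H2AZ1 and H3-3A. Metal-binding and antioxidant genes lacked 3 of 10, namely FTH1, the ferritin heavy chain, GPX1 and TXN. The actin cytoskeleton and contractile list lacked 3 of 30 (TAGLN2, TPM3 and MYH10), matrix and secreted genes 3 of 27 (COL4A1, TIMP2 and IGFBP3), and annexins, S100 proteins and galectins 2 of 15. In the MHC class I list B2M, the light chain of class I molecules, was the 1 symbol of 8 without a named identifier. All 16 glycolysis and lactate symbols had one. Outside the histones no later symbols were looked up, so a renamed gene would be counted as lacking.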

How the data were processed

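FPKM values for both libraries, in separate columns of 1 table, are what the authors deposited. TopHat2 2.0.12, HTSeq 0.6.1 and the build Sscrofa11.1 are named in the submitters' processing notes; annotation release, strand setting and filters were not given in the sources used here. A read that reaches past a short gene can still count for it, and reads shared by near-identical copies may be dropped, so levels of short or duplicated genes are uncertain.

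FPKM values keep 10 significant digits. Ratios of low values gave the ratio of the library totals, and the largest totals under which gene lengths come out whole were taken. Each identifier received the shortest length from 50 to 30000 bases that made reads whole in both libraries, within 1.2 times the rounding. Lengths equalled RefSeq in 11 of 12 mitochondrial protein genes. Recovered reads summed to 90.8% of each total. On simulated libraries of 25880 genes, 85.8% of genes above 0 received their true reads. Intervals for counting error are not given; the exact binomial test (scipy 1.17.1, Python 3.11.15) covers counting error alone.

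Symbols came from the Ensembl gene name table, which paired 14857 identifiers. The members and lists were chosen with earlier results of these data known. The members named were the 15 highest, the 3 largest log2 ratios in each direction and 3 on each side of the threshold; the rule's classes by biotype and description could not be filled. The short members and those called, where named, were chosen after their values were seen, as were the division of identifier numbers at 20000 and 30000 and the 9 lists. Alternatives changed the threshold, the scaling, the share, the length comparison and the library test. No sequences of the members were used here.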

Additional observations from a re-analysis of the deposited data

How the results depend on the processing

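The number of unnamed abundant identifiers, 105, was 185 at a threshold of 50 FPKM, 48 at 200 FPKM and 250 when values were rescaled to TPM, and it ranged from 103 to 105 when a replicate was left out. The share of summed FPKM, 10.98%, was 12.5% at 50 FPKM, 8.86% at 200 FPKM, 5.57% as a share of recovered reads and 11.7% without mitochondrially encoded genes. It was 7.86% without the most abundant member, an alternative chosen after seeing the data, and from 10.9% to 11.01% when a replicate was left out. The ratio of median lengths, 0.692, was 0.494 against all identifiers of 1 FPKM or more and 0.816 without genes under 250 bases, also chosen after seeing the data. The count of members that differed between the libraries, 12, was 13 when only identifiers of 1 FPKM or more were tested. It was 0 by a difference over 1.5-fold. In the exact binomial test, 32 of the 105 members had an unadjusted p under 0.05, beside 159 of the 446 abundant named identifiers. The count of members with a RefSeq annotation was 0 under each threshold and each left-out replicate. With the Ensembl field of RefSeq empty, a match on that field could give no other value. No paired analysis was possible because the series has 1 group, and the library test gives no value without a replicate.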

Other observations

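Short recovered lengths among identifiers without a symbol were not limited to the abundant ones. Of 1526 unnamed identifiers with a mean of 1 FPKM or more, 337 (22.1%) had a recovered length under 250 bases, beside 91 of 9212 named ones (0.988%). The share of unnamed identifiers with such a short recovered length was 28.4% from 1 to 10 FPKM. It was 14.0% from 10 to 100 FPKM and 11.9% from 100 to 1000 FPKM. At 1000 FPKM or more, 1 of 4 unnamed identifiers was short, so the share did not fall at every step. The median log2 ratio of replicate 2 to replicate 1 over these short identifiers was 0.029 without a symbol and 0.034 with one. Among the 105 abundant identifiers, a recovered length was shared by 2, ENSSSCG00000037614 and ENSSSCG00000034846, both at 158 bases. Their levels differed, at 242 and 267 FPKM for the former and 99.1 and 107 FPKM for the latter in replicates 1 and 2.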
